A study of Mus musculus with 6 samples.

Results

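The matrix proteoglycans followed here are 10 genes: the small leucine-rich proteoglycans Dcn, Bgn, Aspn, Lum, Fmod, Prelp and Ogn, the large hyaluronan-binding proteoglycan Vcan, the basement membrane proteoglycan Hspg2, and Dpt, a small matrix protein that binds decorin. The members were all probe sets that the platform annotation assigned to exactly 1 of these genes, 29 of 45101 on the array, for 10 of the 18193 genes with such a probe set. They were read on 6 Affymetrix Mouse Genome 430 2.0 arrays prepared from cells labelled as bladder epithelial cells of 7-day-old mice (P7). Of these, 3 arrays were of DsRed-positive and 3 of DsRed-negative cells, numbered 1, 2 and 5 in each group. All 6 samples have FVB/N x C57BL/6 as their strain, are labelled male, and list B6;129P-Upk1btm1Zhang/J as the gene reported, and the labels do not say how the DsRed-positive and DsRed-negative cells were separated. The layer was freed from bladder rings with 1 mg/ml trypsin for 30 minutes and digested to single cells, and its RNA was amplified in 2 rounds. The samples were not pooled, but nothing in the labels ties each to an animal of its own, so every p-value reflects sample-to-sample spread that may be technical.

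A proteoglycan is a core protein that carries glycosaminoglycan chains, long sulfated sugars. Small leucine-rich proteoglycans coat collagen fibrils through their curved, repeat-built core and set fibril diameter and spacing, and several of them also bind growth factors. Versican fills the space between cells together with hyaluronan, and perlecan, the product of Hspg2, is a heparan sulfate proteoglycan of basement membranes, the sheets on which epithelia rest. In the bladder wall the fibril-associated members are known mainly as products of connective tissue cells beneath the urothelium.

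Promoter sequences of the members are given as background, and their part in the differences between the groups was not tested. Entries were found for 8 of the 10 genes, not for Dcn and Lum, in RefSeq windows of GRCm38.p6 that run from 250 bases before to 50 bases after the annotated start. The 4 windows below belong to Ogn, Bgn and Vcan, which were called lower, and to Hspg2. Capitals mark matches, on either strand, to 4 short motifs. TATAAA is the box at which the general transcription machinery is placed in many promoters. GGGCGG is the box that Sp1-type factors recognise. CATTCC is the core recognised by TEAD factors, and TGANTCA is the site of AP-1 factors.
Ogn, chr13:49607765-49608064, plus strand: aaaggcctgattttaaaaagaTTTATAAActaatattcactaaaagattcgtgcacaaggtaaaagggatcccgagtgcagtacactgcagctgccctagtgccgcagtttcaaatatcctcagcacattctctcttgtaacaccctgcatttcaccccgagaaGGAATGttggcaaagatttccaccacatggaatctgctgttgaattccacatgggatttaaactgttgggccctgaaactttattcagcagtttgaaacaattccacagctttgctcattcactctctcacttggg
Bgn, chrX:73483351-73483650, plus strand: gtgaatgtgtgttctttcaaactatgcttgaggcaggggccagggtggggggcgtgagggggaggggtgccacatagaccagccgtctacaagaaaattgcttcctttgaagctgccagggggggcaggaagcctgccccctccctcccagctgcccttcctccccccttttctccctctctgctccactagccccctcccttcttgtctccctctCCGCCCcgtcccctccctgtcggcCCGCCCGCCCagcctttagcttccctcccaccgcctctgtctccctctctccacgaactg
Vcan, chr13:89742463-89742762, minus strand: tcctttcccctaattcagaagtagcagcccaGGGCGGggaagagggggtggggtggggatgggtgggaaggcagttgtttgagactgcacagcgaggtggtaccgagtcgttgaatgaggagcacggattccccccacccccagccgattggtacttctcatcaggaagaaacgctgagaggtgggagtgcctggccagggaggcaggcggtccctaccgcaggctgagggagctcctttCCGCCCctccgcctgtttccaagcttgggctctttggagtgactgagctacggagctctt
Hspg2, chr4:137468553-137468852, plus strand: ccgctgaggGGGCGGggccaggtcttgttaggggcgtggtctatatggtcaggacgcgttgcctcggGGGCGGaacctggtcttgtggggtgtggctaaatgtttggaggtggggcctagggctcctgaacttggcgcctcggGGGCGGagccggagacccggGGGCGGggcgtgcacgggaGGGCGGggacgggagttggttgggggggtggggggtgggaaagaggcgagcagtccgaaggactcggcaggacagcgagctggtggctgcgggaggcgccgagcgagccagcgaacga
None of the 4 motifs occurred in all 8 windows. GGGCGG occurred in 3 of the 8 windows, Bgn, Vcan and Hspg2, and in 35.7% of 32851 RefSeq windows of the same length. TATAAA occurred in 3, Ogn, Aspn and Dpt (background 13.6%), CATTCC in 1, Ogn (14.7%), and TGANTCA in 0 (7.81%). Relative to the annotated start, the TATAAA matches began at -229 and -227 in Ogn, -207 and -178 in Aspn and 13 in Dpt. In Ogn the matches to TATAAA on the opposite strands overlap, and in Bgn 2 of the 3 matches to GGGCGG share bases. Windows of Fmod and Prelp held none of the 4 motifs. A match describes the letters and is no evidence of binding.

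Signals are given as deposited by the authors (linear intensity) and, for tests, as normalized log2 signal. The control level used below was set on each array at the 95th percentile of the signals of 27 control probe sets without spiked target, 7.41 to 8.03 on the log2 scale, and signal at or below it cannot be told from background. Both arrays numbered 1 went against their male label: their Xist signal was 15.48 (DsRed-negative) and 15.08 (DsRed-positive) on the log2 scale against 8.08 to 8.89 on the other 4, and Eif2s3y, a Y-linked gene, was at 5.44 and 6.32 against 11.78 to 12.93. Both groups hold 1 such array. Bgn, the X-linked member, is given with and without them.

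Of the 10 genes, 8 were lower in DsRed-positive cells on their brightest probe set, Hspg2 did not pass the test and Aspn was too dim to be tested. The tests were run with limma over all 30175 probe sets above a signal filter, and a call means a Benjamini-Hochberg adjusted p under 0.05. Over all genes tested, 11.3% were called lower and 9.21% higher, and the median log2 change was 0.04. By probe set, 21 of the 23 members that passed the filter were called lower and 0 higher, beside 8.62% and 8.63% of all probe sets tested. At an unadjusted p under 0.05 by limma, 0 members were higher, where 31.6% of all probe sets tested passed in either direction. The remaining 6 probe sets were below the filter. Since a dim probe set can pass the filter through its brighter group alone, the fit was repeated with no filter, and the same 21 of all 29 were called lower. All 8 fibroblast markers were lower as well: their summed deposited intensity was 463000 to 1200000 in DsRed-negative and 13200 to 25900 in DsRed-positive arrays, where 5 or 6 of the 8 stayed above the control level and Thy1 and Pi16 were at or below it on all 3. Their part in the result was not tested, and in samples of many cells fewer cells of a type cannot be told apart from less RNA per cell. The calls on the 8 genes were kept in every fit that left out 1 array and in the fit without both arrays numbered 1.

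**Figure D1:**
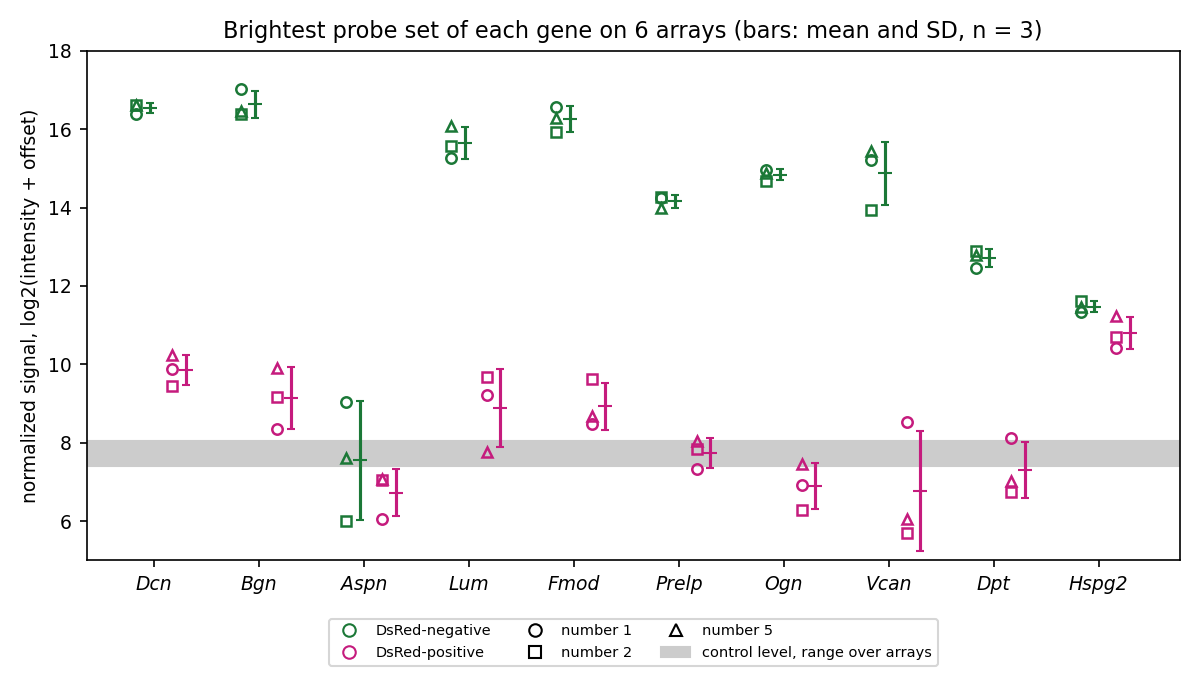
Normalized log2 signal of the brightest probe set of each of the 10 genes on each array, DsRed-negative in green and DsRed-positive in magenta, with the mean and SD of 3 arrays beside the points and the range of control levels over the arrays as a grey band (7.41 to 8.03). Groups lie far apart for 8 genes, close together for Hspg2 and overlap for Aspn; probe sets of different genes are not comparable in level.

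Decorin (Dcn), the fibril-coating class I proteoglycan, was abundant in the DsRed-negative arrays and faint in the others. Its deposited intensity was 84412, 163179 and 147527 in DsRed-negative 1, 2 and 5 and 859, 576 and 1158 in the DsRed-positive arrays of the same numbers. The groups were far apart, and the mean of the DsRed-positive arrays was 0.656% of the other mean. The log2 change was -6.67 ± 0.34 (SE, adjusted p = 7.43e-05), and all 3 DsRed-positive arrays (9.46 to 10.24) stayed above the control level. The other Dcn probe set, 1441506_at, lay at or below the control level on all 6 arrays.

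Biglycan (Bgn), the class I relative of decorin, gave 124315, 126157 and 128402 in the DsRed-negative arrays and 217, 460 and 896 in the DsRed-positive ones. The DsRed-negative values were within a narrow range, and those of DsRed-positive cells rested on low but detectable signal. The log2 change was -7.48 ± 0.47 (adjusted p = 1.10e-04), and -6.88 ± 0.46 without both arrays numbered 1. The other 2 probe sets of the gene changed by -6.61 and -8.23, so all 3 agreed in direction.

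Asporin (Aspn), the class I member with an aspartate-rich end, could not be followed on these arrays. Its brightest probe set gave 527, 33.6 and 192 in DsRed-negative 1, 2 and 5 and 19.1, 70.3 and 77.7 in the DsRed-positive arrays. Only DsRed-negative 1, at 9.03 on the log2 scale, rose above its control level, and the groups overlapped. With no filter the log2 change was -0.82 ± 0.75 (adjusted p = 0.562), and -1.59 ± 0.52 (adjusted p = 0.107) on its other probe set. At this signal a difference was not detectable.

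The class II members carry keratan sulfate or bind collagen and heparin. Lumican (Lum), best known for keeping collagen fibrils of the cornea evenly spaced, gave 40172, 59159 and 89406 in the DsRed-negative arrays and 476, 689 and 152 in the DsRed-positive ones. DsRed-positive 5 was the lowest, the groups did not overlap, and the log2 change was -6.75 ± 0.54 (adjusted p = 2.77e-04). Fibromodulin (Fmod), a regulator of fibril assembly and cross-linking, gave 94018, 80674 and 109739 against 245, 652 and 340, a log2 change of -7.33 ± 0.41 (adjusted p = 9.28e-05). All 6 Fmod probe sets fell, with log2 changes of -5.53 to -7.33, and 5 of them have names ending in _x_at, which marks probes that may also bind other transcripts.

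Prelp, which links basement membrane heparan sulfate to fibrillar collagen, gave 19310, 19488 and 15851 against 89.4, 146 and 197 on probe set 1416321_s_at. The log2 change was -6.43 ± 0.34 (adjusted p = 8.08e-05), with DsRed-positive 1 at or below its control level. On the dimmer 1416322_at all 3 DsRed-positive arrays lay at or below the control level, which bounds the difference at no less than 3.92-fold, so it was at least 3.92-fold lower.

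Osteoglycin (Ogn), the class III member, was bright in the DsRed-negative arrays and near the control level in the others. It gave 32077, 26785 and 33427 in DsRed-negative 1, 2 and 5 and 62.1, 27.9 and 115 in DsRed-positive 1, 2 and 5, a log2 change of -7.95 ± 0.39 (adjusted p = 7.43e-05). Only DsRed-positive 5 was above its control level, at 7.46 on the log2 scale, so part of the DsRed-positive signal cannot be told from background. On the second Ogn probe set all 3 DsRed-positive arrays were at or below the control level, and the gene was at least 18.7-fold lower.

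Versican (Vcan) was bright in the DsRed-negative arrays, with a wide spread between arrays in both groups. Probe set 1427256_at gave 39060, 15314 and 52834 in the DsRed-negative arrays and 253, 9.08 and 21.2 in the DsRed-positive ones. DsRed-positive 1 was the highest of its group, at 8.52 on the log2 scale, while DsRed-positive 2 and 5 lay below their control levels. The log2 change was -8.10 ± 0.79 (adjusted p = 5.83e-04), with a 95% interval of -9.93 to -6.27.

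The 8 Vcan probe sets fell into separate kinds. Probe sets 1421694_a_at and 1427257_at changed by -7.35 each, and for the latter all DsRed-positive arrays were at or below the control level, which gives at least 71.0-fold. The dim 1447887_x_at changed by -2.53 (adjusted p = 0.00926), at least 1.96-fold, and was not called without both arrays numbered 1 (adjusted p = 0.0766). Probe set 1433043_at went the other way without passing: it gave 225, 570 and 75.7 in the DsRed-negative arrays and 91.9, 336 and 399 in the DsRed-positive ones, overlapping groups with a log2 change of 0.52 ± 0.67 (adjusted p = 0.644), or -0.06 without DsRed-negative 5. The annotation derives it and 1433044_at, which was at or below the control level throughout, from a transcript record of its own. The last 2 probe sets, 1459767_x_at and 1447586_at, were also at or below the control level on all 6 arrays.

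Dermatopontin (Dpt), the decorin-binding partner, gave 5480, 7195 and 6689 against 178, 50.7 and 74.1. Its log2 change was -5.42 ± 0.44 (adjusted p = 2.73e-04), and DsRed-positive 2 and 5 lay at or below their control levels. Like Vcan, Dpt was highest in DsRed-positive 1. No DsRed-positive array was consistently the richest: array 5 was the highest for 6 of the 10 genes, array 1 for 2 and array 2 for 2. The 6 include Aspn, whose DsRed-positive signals all lay at or below the control level.

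**Figure D2:**
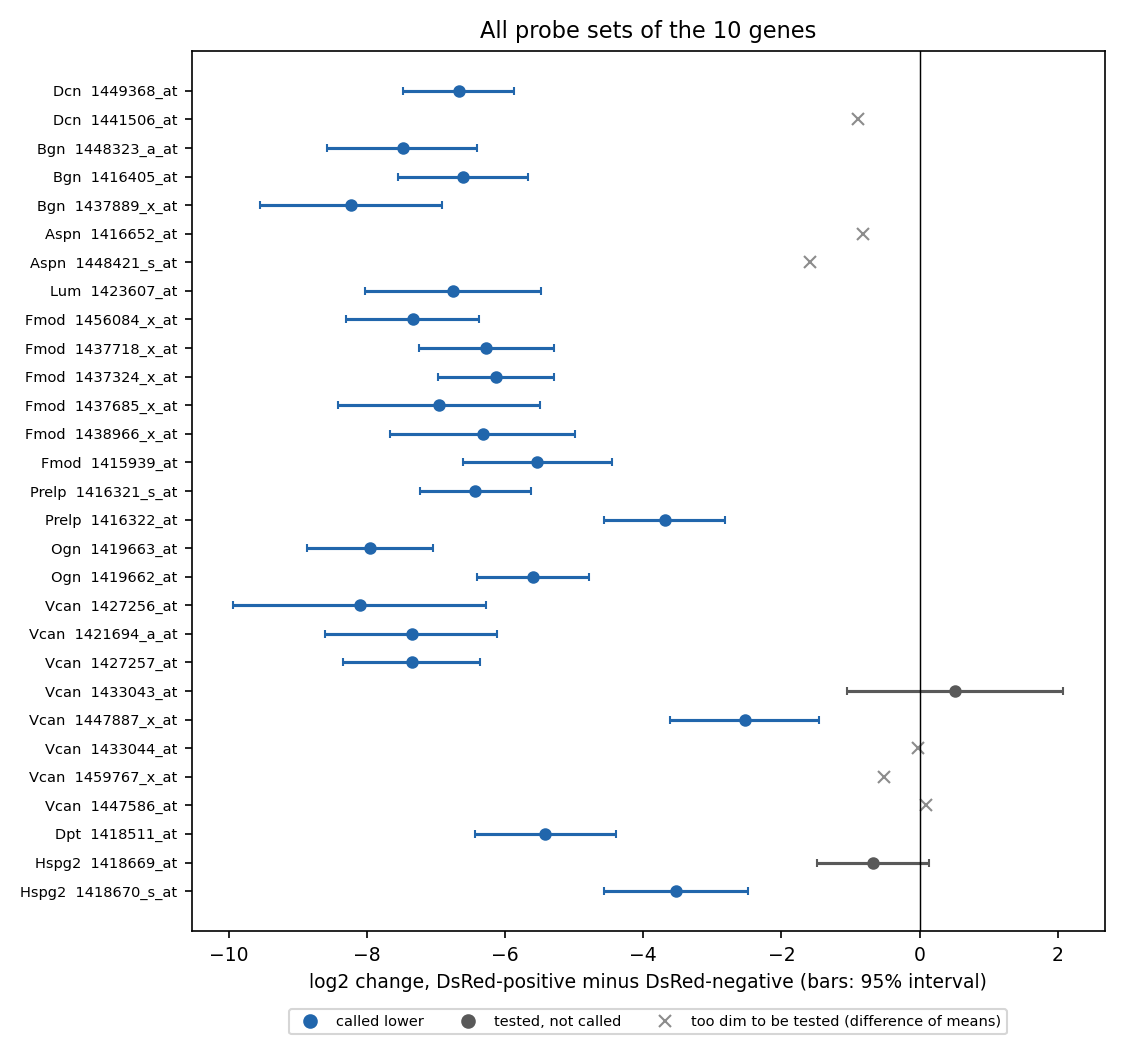
Log2 change of every probe set of the 10 genes, DsRed-positive minus DsRed-negative, with 95% intervals from the limma fit; blue points were called lower, grey points were tested and not called, and crosses were too dim to be tested. The 2 grey points are Hspg2 1418669_at (-0.68) and Vcan 1433043_at (0.52), each in a gene whose other tested probe sets were called lower.

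Perlecan (Hspg2) gave answers that depended on the probe set. On the brighter 1418669_at the deposited intensity was 2492, 2972 and 2663 in the DsRed-negative arrays and 1346, 1559 and 2399 in the DsRed-positive ones. The groups did not overlap but lay close together, and the log2 change of -0.68 ± 0.35 did not pass (adjusted p = 0.228), with a 95% interval of -1.49 to 0.13. On 1418670_s_at the intensity was 1282, 564 and 916 against 25.3, 12.2 and 39.9. That probe set was called lower (-3.53 ± 0.45, adjusted p = 0.00179), a difference of at least 4.64-fold because all 3 DsRed-positive arrays lay at or below the control level. The annotation names the same RefSeq transcript for both. With the mean of both probe sets Hspg2 was called lower (-2.10, adjusted p = 0.00253).

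Within arrays, the log2 signal of the bright Hspg2 probe set minus that of the brightest probe set of another member was higher in DsRed-positive than in DsRed-negative cells by 4.74 for Dpt, 5.99 for Dcn and 7.42 for Vcan. These are the differences between the log2 changes given above, and since the 8 genes called lower were known when the comparison was chosen, they are a description with no test. Relative to Aspn the value was 0.14, with overlapping groups.

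In the genome, several of these genes sit side by side with their relatives. On chromosome 10 Dcn and Lum are followed by Kera and Epyc, on chromosome 13 Aspn and Ogn lie beside Ecm2 and Omd, and on chromosome 1 Prelp lies between Optc and Fmod in the order of RefSeq protein-coding genes of GRCm38.p6. Kera, Omd and Ecm2 were at or below the control level on all 6 arrays, Epyc exceeded it only in DsRed-negative 2 (7.81), and Optc, an eye proteoglycan, had a log2 change of -0.93 ± 0.60 (adjusted p = 0.335) at signals of 6.13 to 8.95. Of 11 further small leucine-rich proteoglycans, 9 had a probe set and 3 were tested. By limma 0 of the 3 were called, beside 11.3% lower and 9.21% higher of all genes, and 3 genes are too few to set against those shares. An unadjusted p under 0.05 by limma was reached by 31.6% of all probe sets tested, and by 1 of the 3. That was podocan (Podn), at -1.26 ± 0.36 (adjusted p = 0.0526), which was called lower in 6 of the 18 alternatives, 1 of them the fit without DsRed-negative 2 (adjusted p = 0.0439), while Nyx had a value of 0.18.

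All 12 of the 12 fibril and matrix partners tested were lower, beside 11.3% of all genes, with a median log2 change of -5.92 beside -6.75 for the 9 members tested. They included the type VI collagen chains Col6a1 (-6.92 ± 0.43) and Col6a3 (-6.82 ± 0.41), which biglycan and decorin bind, the main fibril chain Col1a1 (-5.89 ± 0.37), and Ccn4, a matricellular protein (at least 21.9-fold lower). Col1a1, Col1a2 and Col3a1 of this list are also among the fibroblast markers, with the same probe sets, so the 2 lists are not separate. Of 6 proteases known to cleave versican or its relatives, 4 were lower (66.7%): Adamts4 (-7.23 ± 0.54), Adamts9 (-5.88 ± 0.48), Adamts5 (-5.42 ± 0.38) and Adamts1 (-2.99 ± 0.36).

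Of 18 basement membrane partners of perlecan tested, 11 were lower (61.1%, beside 11.3% of all genes) and 2 higher (11.1%, close to the 9.21% of all genes), with a median of -2.38. Without both arrays numbered 1 there were 7 and 1. The higher count was 4 with each array's median set to the same value, with an offset at the 50th percentile or with a trended, robust variance, and 0 without suffixed probe sets. Sparc, a collagen-binding matricellular protein, changed by -6.79 ± 0.35, the type IV collagen chains Col4a2 by -6.05 ± 0.31 and Col4a1 by -6.01 ± 0.52, and Ecm1 by -3.46 ± 0.31. The higher genes were Lamb3 (3.67 ± 0.57) and Lama3 (2.61 ± 0.53), chains of the laminin under stratified epithelia; the Lama3 call was lost without DsRed-positive 1 (adjusted p = 0.0673) or DsRed-positive 2 (adjusted p = 0.0571), which left 1 gene higher in each case.

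Other proteoglycans did not all follow. Of 10 cell surface proteoglycans tested, 8 were lower (80%) and 1 higher (10%), beside 11.3% and 9.21% of all genes. Only 5 were lower without DsRed-positive 1, without DsRed-positive 5 or without both arrays numbered 1. Glypican Gpc6 changed by -5.10 ± 0.40, Gpc1 by -3.65 ± 0.37 and syndecan Sdc2 by -3.26 ± 0.30, whereas Sdc1, the syndecan typical of epithelium, rose by 2.78 ± 0.32 (adjusted p = 0.00123). Among hyaluronan-binding relatives of versican and the link proteins that fasten them to hyaluronan, 3 of 6 were lower (50%) and 1 higher (16.7%). Hapln1 (at least 3.90-fold), Hapln2 (at least 2.24-fold) and Hapln3 (-1.65 ± 0.36) fell and Ncan was at least 1.55-fold higher. Each of these 4 calls was lost in at least 1 of the fits without 1 array: without DsRed-positive 1 or without DsRed-positive 2 no link protein was called lower, and the Ncan call (adjusted p = 0.0475) was lost in 5 of the 6 fits without 1 array.

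Enzymes that build the sugar chains are given by chain type. Of 14 genes of chondroitin and dermatan sulfate synthesis, the chains of versican, decorin and biglycan, 10 were lower (71.4%) and 0 higher. The shares of all genes were 11.3% and 9.21%. The list median was -2.60, and 1 gene was higher at an unadjusted p under 0.05 by limma. Without both arrays numbered 1, 6 were lower, and 1 was higher without DsRed-negative 5. The sulfotransferase Chst11 was at least 54.5-fold lower, the dermatan sulfotransferase Chst14 changed by -4.56 ± 0.41 and the chain polymerase Chsy1 by -3.62 ± 0.41, and Dse, the epimerase that makes dermatan sulfate, was at least 4.02-fold lower.

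Of 17 genes of heparan sulfate synthesis and editing, the chain of perlecan and syndecans, 2 were lower (11.8%) and 1 higher (5.88%), near or under the 11.3% and 9.21% of all genes, with a median of -0.62. Hpse, which cuts heparan sulfate, changed by -5.01 ± 0.65, and the sulfotransferase Hs3st1 rose by 2.51 ± 0.34. Hs3st1 was read on a suffixed probe set and was not called higher in the fit without such probe sets. Hs6st2 changed by -4.42 ± 1.14 (adjusted p = 0.0355) on scattered signals and lost its call without DsRed-negative 2 or 5 or DsRed-positive 1 or 2 (adjusted p up to 0.136), and Extl3 (-1.26) did not pass. Whether the chondroitin and heparan lists differ from each other was not tested.

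The linker enzymes start both chain types, and the last group makes keratan sulfate. Of 5 linker genes 1 was called in each direction (20% each, beside 11.3% lower and 9.21% higher of all genes). The xylose phosphatase Pxylp1 rose by 2.90 ± 0.51, but was not called without both arrays numbered 1 or without suffixed probe sets. B4galt7 fell by a log2 change of -1.63 ± 0.44, a call (adjusted p = 0.0407) that each fit without 1 array lost. B3gat3 (0.66) and Fam20b (0.54) did not pass. Of 9 keratan sulfate genes, Chst1 (-2.12 ± 0.49) and St3gal2 (-1.69 ± 0.37) fell (22.2%) and 0 were called higher. Of Chst1 and St3gal2, 0 were called without any 1 of the DsRed-positive arrays. Chst2 (-3.27 ± 1.15, adjusted p = 0.095) and B4galt1 (-0.77) did not pass.

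**Figure D3:**
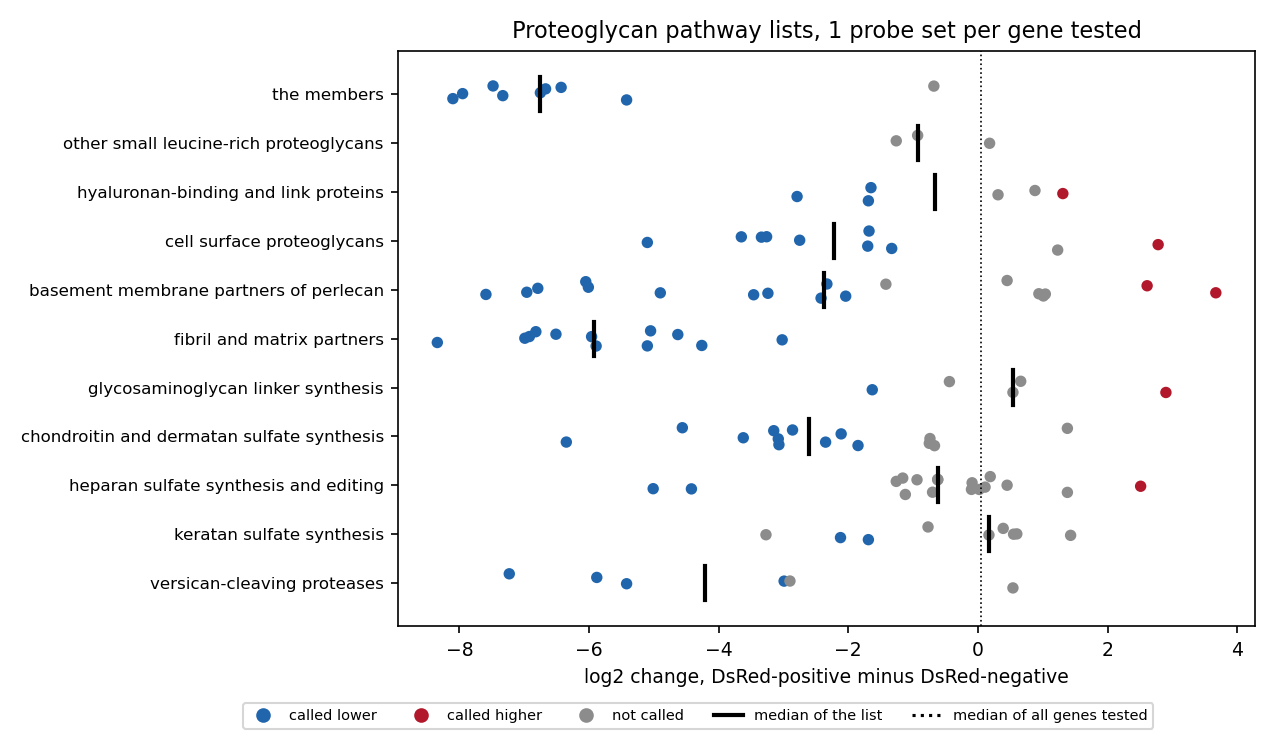
Log2 change, DsRed-positive minus DsRed-negative, of the 9 member genes tested and of the genes tested in 10 proteoglycan pathway lists, 1 probe set per gene, with the list median as a black bar and the median of all genes tested (0.04) as a dotted line. The medians of the members (-6.75) and of the fibril and matrix partners (-5.92) lie farthest to the left. Nearest to the dotted line are keratan sulfate (0.17), linker (0.54), heparan sulfate (-0.62), hyaluronan-binding (-0.67) and other small leucine-rich genes (-0.93).

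The labelled cell type was checked against its markers, and those of other cell types of the bladder wall are given beside it. All 12 urothelial markers were higher in DsRed-positive cells, with a summed deposited intensity of 374000 to 598000 there against 24000 to 47100 in DsRed-negative cells, where 11 or 12 were still above the control level. Upk1b, 1 of the 12, is named in the labels' entry for the gene reported, so its direction may not be a separate check of the label. None of the urothelial or fibroblast markers was listed at 0. On the DsRed-negative arrays all 8 fibroblast markers were above the control level. Their sum there, 463000 to 1200000, came mostly from Col1a1, Col1a2 and Col3a1, and levels of different genes are not comparable. With all 12 urothelial markers lower and all 8 fibroblast markers higher than in DsRed-positive cells, the epithelial label is not borne out for those arrays as a whole. Smooth muscle and mural markers summed to 132000 to 223000 against 43800 to 53500 (5 of 7 tested lower and Rgs5 higher). Most of the DsRed-positive sum was the pericyte marker Rgs5, at 41325 to 50648, and the other 7 summed to 109000 to 199000 in DsRed-negative and 2060 to 2890 in DsRed-positive arrays, a split made after the values were seen. The endothelial markers summed to 8380 to 12800 against 1070 to 1270 (4 of 5 lower). Leukocyte markers summed to 25900 to 38600 against 1820 to 2930 (5 of 6 lower). Mast cell markers summed to 14900 to 24100 against 287 to 515 (1 of 3 lower, Cpa3). Cpa3 was at or below the control level on all 3 DsRed-positive arrays. Most of the DsRed-negative mast cell sum was Cpa3 alone, at 13848 to 23756, also seen only after the values. Kit (-0.75) and Tpsb2 (0.22) were not called, and Mcpt4 and Fcer1a were too dim to be tested. Of 4 nerve and Schwann cell markers 0 were called by limma, or had an unadjusted p under 0.05, with sums of 1330 to 2430 against 604 to 852. The part of these cell types in the values of the members was not tested.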

How the data were processed

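The deposited values are linear probe set intensity, and the trimmed means of the deposited arrays are equal, as a scaling by the authors would leave them; the submitters' processing notes name GCOS but neither its version nor its settings. Values were raised by 39.84 (the 20th percentile over all arrays) and put on the log2 scale, and arrays were quantile normalized because their medians spanned 0.74. Adding this offset makes ratios smaller where signal is dim. After removal of 64 controls, probe sets whose mean log2 signal exceeded 7.18, the 33rd percentile, were fitted with limma 3.58.1 in R 4.3.3 (lmFit and eBayes, two-sided, with 1 variance over both groups), adjusted over all 30175. A gene was represented by its brightest single-gene probe set, named through platform annotation updated by gene ID (34741 of 34945 matched). Where all arrays of the lower group lay at or below the control level, that level replaced their values and the fold is a lower bound ("at least"). Intervals cover 95%. Errors of log2 changes are SEs with 3 arrays a group. The number of arrays limits the precision.

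The members, lists and tests were chosen with earlier results of these data known. Genes named are all members, the 4 tested genes of each pathway list with the smallest p, and any called against most of its list; marker genes, Xist, Eif2s3y and genomic neighbours are named besides. The fit was tested on simulated data. Alternatives covered the scaling, offset, filter, variance model, choice of probe set, a replicate block and arrays left out. Protein sequences were not used here.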

Additional observations from a re-analysis of the deposited data

How the results depend on the processing

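Under each of the 18 alternatives run (values as deposited, centring on the median, other offsets, filters, variance models and probe set choices, the replicate block, and arrays left out), the 8 member genes called lower kept that call and direction, with log2 changes from -9.25 to -3.69, and 0 were called higher. Hspg2 gained a call in 1 alternative, the mean of all probe sets. Leaving out each array gave 19 to 21 member probe sets called lower and 0 higher. Without the suffixed probe sets, 10 of 12 were called lower. Over the pathway lists, 53 of 100 genes were lower and 6 higher, beside 11.3% lower and 9.21% higher of all genes. Leaving out each array gave 40 to 53 lower and 4 to 6 higher, and without both arrays numbered 1 there were 35 and 3. Median centring of the arrays gave 10 higher, and leaving out suffixed probe sets gave 1. That centring moved the median of all genes from 0.04 to 0.37 and the share of higher genes among all called from 45.0% to 64.7%; with the values as deposited they were -0.17 and 37.6%. For Hspg2 relative to Aspn the shift turned to -0.17 with an offset at the 50th percentile and ranged from -0.66 to 0.99 when each array was left out. Nyx turned to -0.36 with the values as deposited and ranged from -0.04 to 0.44 without single arrays, and Vcan 1433043_at from -0.06 to 1.08. The cause of these changes was not tested. With the number as a replicate block, 21 member probe sets and 8 member genes were called lower, 50 and 5 pathway genes lower and higher, and over all genes 1406 lower and 1067 higher beside 1603 and 1310; same-numbered arrays correlated in their deviations from the group means by 0.145, 0.037 and 0.053 (numbers 1, 2 and 5) and each array correlated best with its own number, a hint from the data and not from the design. The labels give the same numbers in both groups without saying that they pair arrays, though the arrays numbered 1 also shared their Xist and Eif2s3y signals. SEs and p-values given for log2 changes above come from the fit without this block. Signal at or below the control level in DsRed-positive cells limits the sizes given for Ogn, Vcan, Dpt and Prelp.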
